A study of Homo sapiens with 14 samples.

Results

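These results concern IMR90 fibroblasts made senescent with inflachromene (ICM) in the later pair of ICM libraries of the study, ICM replicates 3 and 4, set against untreated IMR90 replicates 1 and 2. The members were chosen by their titles: ICM 3 and 4 are the ICM libraries whose titles lack the assay name, and the fit holds these 4 of the 14 libraries of the series. IMR90 is an established strain of primary human lung fibroblasts, and all 4 libraries carry the wild-type genotype label with no siRNA. The untreated cells (WT 1 and 2) have the treatment label "None". The ICM cells received inflachromene at 10 µM for at most 6 days, per the labels' protocols. The compound targets HMGB1 and HMGB2, abundant DNA-bending proteins of chromatin. The growth protocol names 2 IMR90 isolates and does not tie them to libraries, and the cell line fields of ICM 3 and ICM 4 read IMR91 and IMR92 while their titles read IMR90. The labels do not say whether replicates were separate cultures, so the p-values measure the spread between these samples, which may be technical. No untreated library carries a title of the later form, so the treatment and the set a library belongs to cannot be told apart anywhere below.

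Cellular senescence is a lasting exit from the cell cycle. Cyclin-dependent kinase inhibitors such as p21 (CDKN1A) and p16 (CDKN2A) hold the retinoblastoma proteins in their repressive state, genes for DNA replication and mitosis are shut down by E2F and DREAM complexes, and lamin B1 and HMGB proteins are commonly lost. Senescent fibroblasts often also secrete cytokines, chemokines and proteases under NF-kB control, a programme called the senescence-associated secretory phenotype. ICM is also known as an inhibitor of HMGB-driven inflammatory signalling.

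Gene counts were 33561766 and 36450212 in WT 1 and 2 and 23906175 and 25369856 in ICM 3 and 4, and protein-coding genes held 98.1% to 98.6% of them. Mitochondrial mRNA took 3.54% and 3.11% of the gene counts in WT and 0.241% and 0.252% in ICM 3 and 4. Between ICM 3 and 4 the median chi-square per gene was 16.3, against 3.93 between WT 1 and 2 and 0.455 from sampling alone. Each was counted as a library of its own, and these values do not show whether the cultures were separate. ICM 3 lay closer to the first library with CTCF knocked down (3.46), and ICM 4 to the second (2.11), than the ICM pair did to each other. Across 11283 genes the ratio of ICM 4 to ICM 3 was lower at higher GC content of the transcript (Spearman's rho -0.49, a description across genes that share libraries), while for the ratio of ICM to WT rho was 0.11. Fibroblast markers were present in every library: the summed level of 22 of them was 20595 and 27166 CPM (gene counts scaled to a library total of 1000000) in WT and 4655 and 2287 CPM in ICM 3 and 4. In bulk RNA, fewer cells of a type and less RNA per cell cannot be told apart, here and for every gene below. Of 14 epithelial markers, 9 had no count in ICM 3 and 4, EPCAM and CDH1 among them, and 12 were too low to test. KRT18, a simple-epithelium keratin, rose from 46.1 and 42.7 CPM in WT to 194 and 176 CPM, and KRT8 was at 11.4 and 11.6 CPM in WT and 18.5 and 15.2 CPM in ICM without passing the test. Of 13 immune and 10 endothelial markers, the pan-leukocyte gene PTPRC had 0 and 0.0394 CPM in ICM 3 and 4, CDH5 had no count, and 2 of each list were tested. The lysosomal CD68 rose 2.28-fold, and KDR and TEK fell.

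After ICM, mitotic, matrix, contractile and cytokine genes were lower, while p53 targets, chaperones of the endoplasmic reticulum (ER), antioxidant genes and ribosome assembly factors were higher. Of 11536 protein-coding genes whose mean level reached 1 CPM, 6361 (55.1%) differed at an adjusted p under 0.05 in the quasi-likelihood test of edgeR, 3236 higher (28.1%) and 3125 lower (27.1%). A change of at least 2-fold beside that p was met by 1817 higher genes (15.8%) and 2366 lower genes (20.5%). The counts given below for gene groups are read against these shares. All fold changes are relative to the scaling of the libraries: with total counts in place of trimmed means, the median over all genes (log2) moved from 0.03 to 0.18, and 3791 genes were higher and 2689 lower. Leaving out WT 1 or WT 2 lowered the number of genes called, and leaving out ICM 3 or ICM 4 raised it. Each such fit leaves 1 library in a group, so its spread comes from the other group alone.

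Among genes with a mean of 10 CPM and at least 4 counts in each ICM library, the 10 largest falls included the cytokines IL6, CCL2 and IL1B. IL6, an inflammatory cytokine, was at 505 and 288 CPM in WT 1 and 2 and at 0.669 and 0.631 CPM in ICM 3 and 4 (log2 fold change -9.4, SE 0.44, edgeR adjusted p = 0.000646). CCL2, which attracts monocytes, went from 210.3 and 155 to 0.962 and 0.276 CPM (log2 fold change -8.36, SE 0.52, edgeR adjusted p = 0.000785), and PTGS2, the inducible cyclooxygenase, from 1019.5 and 580.5 to 5.14 and 4.26 CPM (log2 fold change -7.56, SE 0.41, edgeR adjusted p = 0.000651). Both ICM libraries were low for each of the 3 genes. They were picked among the 10 largest falls, so their separation from WT follows from that choice. The remaining genes of the lowest 10 were RIPOR3, SCG2, TCIM, IL1B, NREP, ARHGAP28 and RGS5, with log2 fold changes of -8.57 to -7.11. RIPOR3 differed between the ICM libraries, at 5.06 and 0.355 CPM, and both values lay far under the 1022 and 832 CPM of WT.

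At the other end stood HMOX1, heme oxygenase 1, which breaks down heme and is a classical NRF2 and BACH1 target. It was at 51.9 and 54.5 CPM in WT and 2792 and 4048 CPM in ICM 3 and 4 (log2 fold change 5.85, SE 0.27, edgeR adjusted p = 0.000646). OSGIN1, an oxidative stress response gene, went from 24.4 and 23.3 to 562 and 856 CPM (log2 fold change 4.74, SE 0.26, edgeR adjusted p = 0.000656). The decoy TRAIL receptor TNFRSF10C rose from 1.102 and 2.11 to 18.1 and 56.9 CPM, with ICM 4 the higher library. CDH15, a cadherin of muscle cells, rose from 0.447 and 0.604 to 31.8 and 21.7 CPM, and HID1, which acts in dense core vesicle formation, from 1.04 and 0.878 to 33.3 and 25.7 CPM. Of the other 5 genes of the highest 10, H4C8, H1-2 and H2BC4 are histone genes from families of similar genes, RRN3 has near-identical pseudogenes, and UQCRHL is a retrocopy of UQCRH. The level of each is uncertain where reads could be split among similar sequences.

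**Figure D1:**
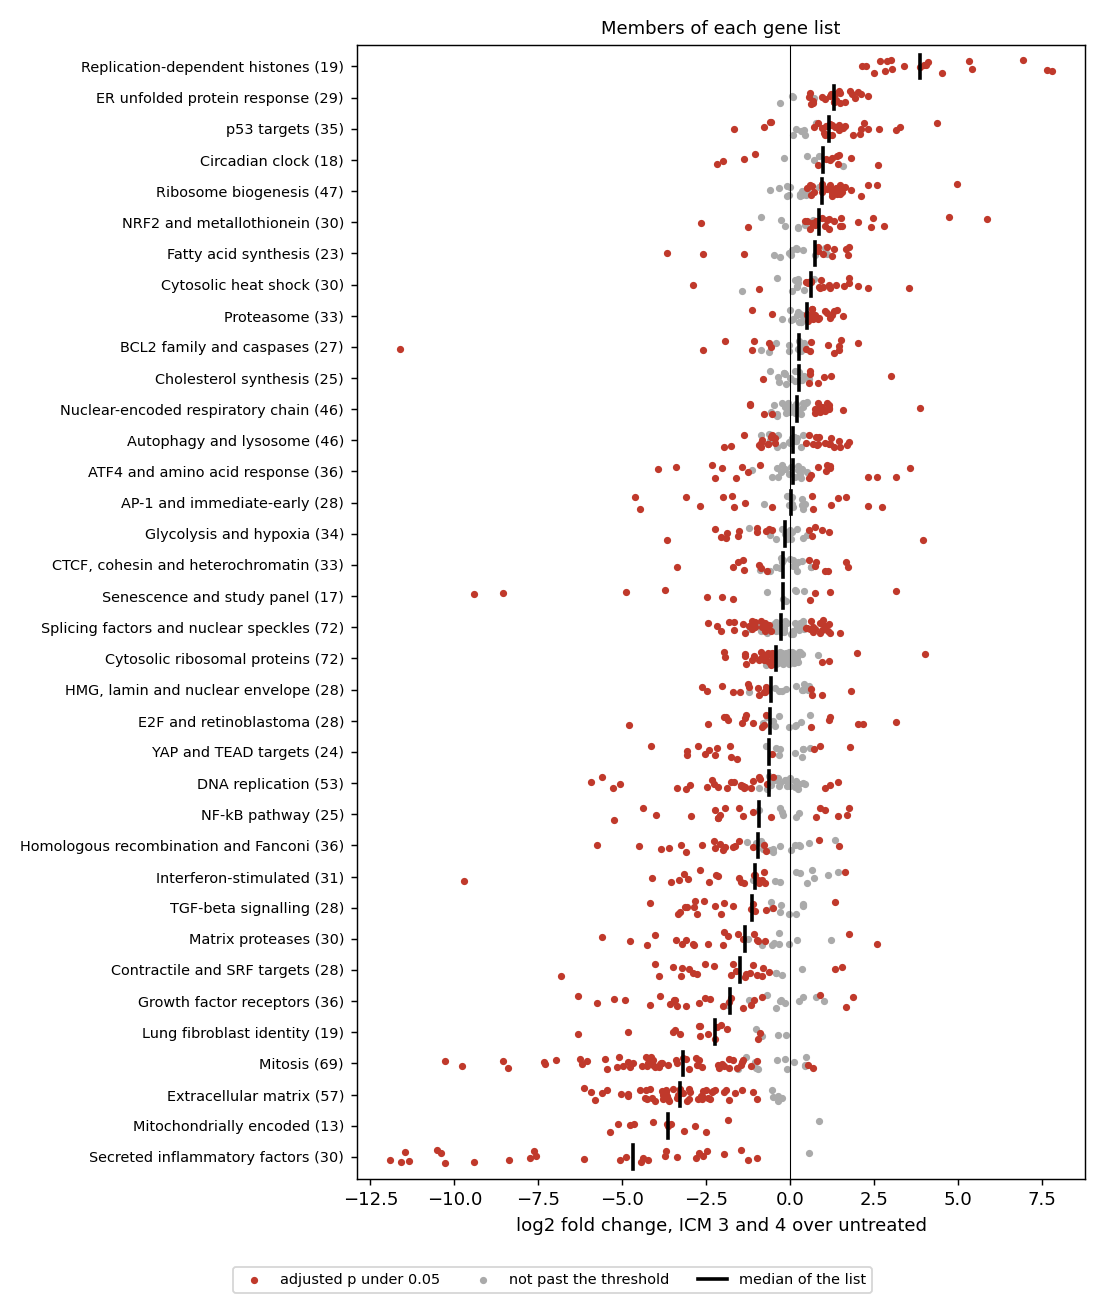
Each point is the log2 fold change (x axis, ICM 3 and 4 over WT 1 and 2) of 1 tested gene of the list named on the y axis, with the number tested in parentheses; red points passed an adjusted p under 0.05 and black bars are medians. The medians run from -4.67 for the secreted inflammatory factors to 3.87 for the replication-dependent histones, a list of which only 19 of 58 members were tested.

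Among the senescence and study genes, CDKN1A rose most. This p53 target and inhibitor of cyclin-dependent kinases was at 1186 and 1225 CPM in WT and 10803 and 13084 CPM in ICM 3 and 4 (log2 fold change 3.15, SE 0.22, edgeR adjusted p = 0.000846). CDKN2A was at 23.5 and 23.1 CPM in WT and 23.2 and 8.99 CPM in ICM (log2 fold change -0.68, SE 0.45, edgeR adjusted p = 0.251). ICM 3 was near WT there and ICM 4 was lower, and without ICM 3 the log2 fold change of CDKN2A was -1.61. The p15 gene CDKN2B (20.3 and 18.6 CPM in WT and 17.99 and 30.1 CPM in ICM) and RB1 (63.2 and 67.2 CPM in WT and 66.4 and 96.97 CPM in ICM) did not pass. GLB1, which encodes the lysosomal beta-galactosidase used as a senescence stain, was at 108 and 108 CPM in WT and 118 and 87.1 CPM in ICM and did not pass. Without ICM 3 the log2 fold changes were 0.39 for CDKN2B, 0.33 for RB1 and -0.55 for GLB1. That fit leaves 1 ICM library and so holds no spread between ICM libraries.

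LMNB1, encoding lamin B1, fell from 21.4 and 19.9 to 4.18 and 4.18 CPM (log2 fold change -2.46, SE 0.22, edgeR adjusted p = 0.00104). The genes of both ICM targets fell as well, HMGB1 from 373 and 366 to 104 and 97.6 CPM (log2 fold change -2.02, SE 0.15, edgeR adjusted p = 0.000865) and HMGB2 from 27.7 and 28.01 to 7.66 and 11.6 CPM (log2 fold change -1.69, SE 0.24, edgeR adjusted p = 0.00357). Both ICM libraries lay under both WT libraries in each of these 3 genes, a description only, as the share of all genes so separated is not given here. The nuclear speckle scaffold SON rose from 259 and 315 to 657 and 812 CPM (log2 fold change 1.2, SE 0.18, edgeR adjusted p = 0.00434), and CTCF, the chromatin loop anchor protein, from 49.2 and 50.7 to 94.9 and 91.9 CPM (log2 fold change 0.75, SE 0.14, edgeR adjusted p = 0.00773). SRRM2, the other speckle scaffold, was at 417 and 476 CPM in WT and 658 and 846 CPM in ICM (log2 fold change 0.6, SE 0.18, edgeR adjusted p = 0.0387). The call of SON was lost without WT 1 (log2 fold change 1.06, edgeR adjusted p = 0.0519). The calls of CTCF and SRRM2 were lost when either WT library was left out (log2 fold changes of 0.72 and 0.75, and of 0.50 and 0.67). With a mean of at least 10 CPM required, SRRM2 did not pass (log2 fold change 0.51, edgeR adjusted p = 0.0633). In a fit of 8 libraries, which added those with HMGB2 or CTCF knocked down, CTCF did not pass (log2 fold change 0.75, edgeR adjusted p = 0.177). BANF1, the barrier-to-autointegration factor of the nuclear envelope, was at 78.6 and 63.2 CPM in WT and 118 and 91.6 CPM in ICM (log2 fold change 0.41, SE 0.21, edgeR adjusted p = 0.147). Without ICM 4 the log2 fold change of BANF1 was 0.62. A fit without 1 library leaves 1 library in its group, so its spread comes from the other group alone.

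**Figure D2:**
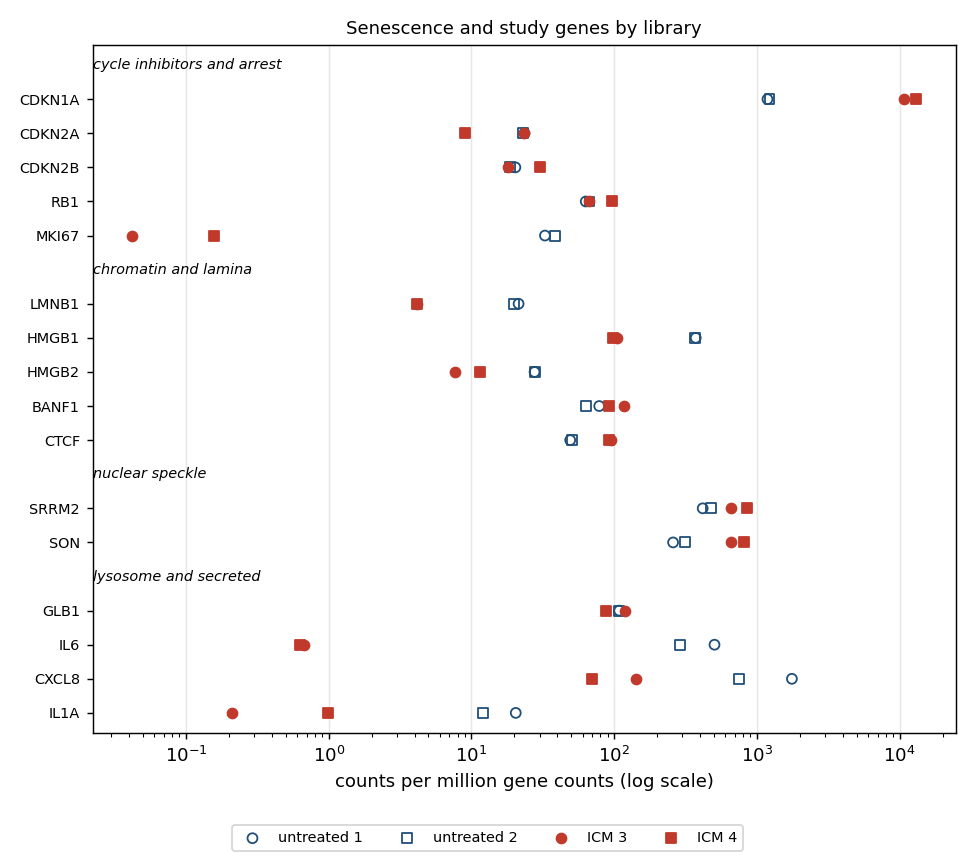
CPM (x axis, log scale) of 16 senescence and study genes on the y axis in WT 1 and 2 (blue, open) and ICM 3 and 4 (red, filled); circles are replicates 1 and 3, squares 2 and 4. CDKN1A lies to the right of WT in both ICM libraries, and MKI67, IL6 and LMNB1 lie to the left.

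Most mitotic genes fell. Of 72 listed mitosis, kinetochore and condensin genes, 69 were tested; 55 fell and 2 rose (PTTG1 and CENPN), with a median log2 fold change of -3.19 against 0.03 for all genes tested. In 28 of the 69, MKI67, DLGAP5, KIF18B and CDK1 among them, the mean reached 1 CPM in WT alone. The direction of these 28 follows from the filter. Of the 41 that reached 1 CPM in both groups 27 fell and 2 rose. With a mean of at least 10 CPM required, the list median was -1.65 over 27 genes. MKI67, the proliferation marker Ki-67, went from 32.8 and 38.8 CPM in WT to 0.0418 and 0.158 CPM in ICM 3 and 4 (log2 fold change -8.56, SE 0.41, edgeR adjusted p = 0.000646). DLGAP5, a spindle assembly factor, had 12.9 and 14.6 CPM in WT and 2 counts over both ICM libraries, a ratio of 340.3 with a 95% counting interval of 93.95 to 2814. KIF18B, a kinesin of the spindle, had no count in ICM 3 or 4 and was at least 82.1-fold lower than its 5.36 and 4.66 CPM in WT, taking 3 counts over the group as the floor. CDK1, the mitotic kinase, was at 18.1 and 17.4 CPM in WT and 0.0418 and 0.197 CPM in ICM, and TOP2A, which untangles chromosomes, at 58.9 and 64.3 CPM in WT and 1.63 and 3.75 CPM in ICM. AURKA, the centrosomal kinase, was at 15.1 and 16.5 CPM in WT and 13.6 and 19.7 CPM in ICM 3 and 4 and did not pass. The ATPase core of condensin gave no call: SMC4 was at 58.7 and 64.97 CPM in WT and 22.4 and 48.1 CPM in ICM and SMC2 at 19.99 and 23.98 CPM in WT and 13.8 and 30.8 CPM in ICM.

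The promoters of the 2 called mitotic genes with the largest fall that carry the element before their start are shown because the element is the binding letters of the DREAM and MuvB complexes, which repress mitotic genes outside the cycle. Sequences are from RefSeq (GRCh38.p14), the 250 bases before the annotated start, 5′ to 3′ on the strand of the gene, with the cell cycle homology element TTTGAA (either strand) in capitals. MKI67 lies at chr10:128126424-128126673 on the minus strand and DLGAP5 at chr14:55191586-55191835 on the minus strand.
MKI67: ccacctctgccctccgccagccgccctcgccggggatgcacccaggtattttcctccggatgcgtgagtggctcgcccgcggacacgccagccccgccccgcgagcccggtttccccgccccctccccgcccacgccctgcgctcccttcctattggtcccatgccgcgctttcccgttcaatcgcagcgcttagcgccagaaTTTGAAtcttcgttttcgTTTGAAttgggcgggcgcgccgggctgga
DLGAP5: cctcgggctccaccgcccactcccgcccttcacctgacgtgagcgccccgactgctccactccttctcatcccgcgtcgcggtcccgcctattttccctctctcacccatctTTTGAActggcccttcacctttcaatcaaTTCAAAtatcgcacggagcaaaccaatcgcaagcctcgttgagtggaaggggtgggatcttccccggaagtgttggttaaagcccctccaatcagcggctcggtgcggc
TTTGAA occurred in the window from 250 bases before to 50 after the start of 40 of the 58 tested mitotic genes with a RefSeq promoter (69.0%) and of 9.71% of all 9547 tested genes with one. It was in 32 of the 46 windows of mitotic genes that fell. A match is a description of letters and not of a bound site.

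DNA replication genes split. Of 53 tested (54 listed), 25 fell and 3 rose, with a median log2 fold change of -0.64. In 7 of the 53 the mean reached 1 CPM in WT alone, and of the 46 that reached it in both groups 18 fell and 3 rose. RRM2, the small subunit of ribonucleotide reductase, fell from 37.2 and 32.5 to 0.962 and 0.315 CPM (log2 fold change -5.92, SE 0.48, edgeR adjusted p = 0.000957), TK1, thymidine kinase, from 19.4 and 21.8 to 0.544 and 0.631 CPM (log2 fold change -5.27, SE 0.28, edgeR adjusted p = 0.000651), and MCM10, which starts origin unwinding, from 5.78 and 5.32 to 0.0837 and 0.276 CPM (log2 fold change -5.05, SE 0.51, edgeR adjusted p = 0.00141). Both ICM libraries were low for each. The MCM2-7 helicase was uneven: MCM6 (-2.97), MCM5 (-2.47) and MCM7 (-1.75) fell on the log2 scale, while MCM2 (-0.58), MCM4 (-0.16) and MCM3 (0.00) did not pass. The sliding clamp PCNA, which is also a p53 target, was at 81.5 and 83.3 CPM in WT and 99.3 and 119.9 CPM in ICM 3 and 4 and did not pass. The genes that rose were FEN1 (flap endonuclease, 19.3 and 15.8 to 54.1 and 51.4 CPM), CDC6 (origin licensing, 11.3 and 7.43 to 27.9 and 19.5 CPM) and RPA2 (single-strand binding, 27 and 23.7 to 61.95 and 53.7 CPM).

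Replication genes are textbook targets of E2F factors, so the 2 called members with the largest fall and an E2F-type element before the start are shown in the same way, with TTTCGCGC, TTTGGCGC or TTTCCCGC (either strand, overlapping matches joined) in capitals. MCM6 lies at chr2:135876444-135876693 on the minus strand and UHRF1, which keeps DNA methylation through replication, at chr19:4909251-4909500 on the plus strand.
MCM6: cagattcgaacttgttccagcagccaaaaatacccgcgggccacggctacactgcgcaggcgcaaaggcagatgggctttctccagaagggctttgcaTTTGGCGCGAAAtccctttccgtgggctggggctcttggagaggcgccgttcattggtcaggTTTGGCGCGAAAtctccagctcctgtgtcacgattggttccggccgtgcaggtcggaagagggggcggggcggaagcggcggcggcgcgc
UHRF1: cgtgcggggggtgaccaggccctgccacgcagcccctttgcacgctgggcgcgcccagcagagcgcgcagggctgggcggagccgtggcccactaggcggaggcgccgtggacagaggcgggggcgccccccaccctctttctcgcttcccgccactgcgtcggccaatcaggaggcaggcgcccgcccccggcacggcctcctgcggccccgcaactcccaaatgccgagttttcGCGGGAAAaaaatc
MCM6 went from 28.9 and 26.9 to 4.27 and 3.63 CPM and UHRF1 from 21.3 and 20.3 to 4.98 and 4.53 CPM. The element occurred in 19 of 45 windows of tested replication genes (42.2%) and in 4.67% of all 9547. Among the genes called lower as a whole it was in 4.57%, and among those called higher in 4.92%.

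Some repair and E2F pathway genes fell. Of 36 homologous recombination and Fanconi genes tested, 18 fell and 2 rose. Their median was -0.95, -0.74 without ICM 3 and -1.46 without ICM 4. At the 10 CPM filter it was -0.39 over 13 genes. With ICM 1 and 2 in place of ICM 3 and 4 it was -0.46. In 9 of the 36, BRIP1 and FANCD2 among them, the mean reached 1 CPM in WT alone. The direction of these 9 follows from the filter. Of the 27 that reached 1 CPM in both groups 9 fell and 2 rose, beside 27.1% lower and 28.1% higher among all genes. The helicase BRIP1 fell from 7.78 and 8.697 to 0.377 and 1.54 CPM (log2 fold change -3.25, SE 0.59, edgeR adjusted p = 0.00745) and the Fanconi proteins FANCD2 from 7.54 and 6.39 to 0.753 and 1.06 CPM and FANCI from 17.3 and 15.8 to 3.68 and 3.94 CPM. H2AX, the histone phosphorylated at DNA breaks, rose from 56.9 and 52.4 to 169 and 165 CPM. ICM 4 lay above ICM 3 by a median of 0.43 on the log2 scale over this list, with ATM at 23.6 and 50.9 CPM and RAD50 at 49.5 and 133 CPM, and neither passed. In the E2F and retinoblastoma list 6 of 28 tested genes rose and 12 fell (median -0.59): E2F7, a repressive E2F induced by p53, rose from 6.82 and 8.45 to 23.4 and 53.8 CPM (log2 fold change 2.18, SE 0.41, edgeR adjusted p = 0.00853), while E2F5, a partner of the pocket proteins, fell from 11.6 and 11.03 to 2.43 and 2.17 CPM and the pocket protein RBL2 from 80.8 and 79.3 to 24.5 and 25.2 CPM.

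Most p53 targets rose. Of 35 tested genes (36 listed), 25 rose and 4 fell, with a median log2 fold change of 1.16, and every one reached 1 CPM in both groups. Beside CDKN1A, the death receptor TNFRSF10A went from 3.84 and 4.005 to 31.5 and 53.9 CPM (log2 fold change 3.28, SE 0.31, edgeR adjusted p = 0.00119), BTG2, an antiproliferative factor, from 24.7 and 29.3 to 150.3 and 225 CPM (log2 fold change 2.64, SE 0.23, edgeR adjusted p = 0.00106), and TRIAP1, a survival factor, from 40.97 and 36.2 to 210.2 and 220.1 CPM. MDM2, the ubiquitin ligase that limits p53, rose from 134 and 149 to 369 and 586 CPM and the phosphatase PPM1D from 24.02 and 28.3 to 76.4 and 105 CPM. Over the list ICM 4 lay above ICM 3 by a median of 0.34 on the log2 scale. GDF15, a secreted p53 target, was at 614 and 374 CPM in WT and 602 and 866 CPM in ICM and BAX at 166 and 137 CPM in WT and 222 and 231 CPM in ICM, without passing. PLK2 (689 and 656 to 182 and 291 CPM) fell, as did CCNG1, SUSD6 and TRIM22.

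Among BCL2 family genes and caspases 9 of 27 tested were higher (33.3%) and 7 lower (25.9%), with a median of 0.28, and 0.05 without ICM 3. These shares lay near the 28.1% and 27.1% of all genes. The pore-forming BAK1 rose from 19.1 and 18.7 to 85.8 and 85.5 CPM (log2 fold change 2.03, SE 0.14, edgeR adjusted p = 0.000849), and the protective BCL2L1 (BCL-XL) from 78.4 and 79.4 to 253 and 225 CPM. BCL2A1, an NF-kB-induced survival protein, had no count in ICM 3 or 4 and was at least 201.3-fold lower than its 17.7 and 7.24 CPM in WT. BMF, a proapoptotic BH3 protein, fell from 76.1 and 70.4 to 8.95 and 18.2 CPM.

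Most genes of the ER unfolded protein response rose. The response is sensed by IRE1 (ERN1), PERK (EIF2AK3) and ATF6, and its factors XBP1 and ATF6 act through the ER stress response element. Of 29 tested genes (31 listed), 24 rose and none fell, against 28.1% higher among all genes. The median log2 fold change was 1.31, and 0.86 without ICM 3. The promoters of the 3 called members with the largest rise that hold the whole element are shown, again as the 250 bases before the start from RefSeq (GRCh38.p14), with CCAAT, 9 bases of any kind and CCACG (either strand) in capitals. ERO1B lies at chr1:236281959-236282208 on the minus strand, XBP1 at chr22:28800570-28800819 on the minus strand and CANX at chr5:179698679-179698928 on the plus strand.
ERO1B: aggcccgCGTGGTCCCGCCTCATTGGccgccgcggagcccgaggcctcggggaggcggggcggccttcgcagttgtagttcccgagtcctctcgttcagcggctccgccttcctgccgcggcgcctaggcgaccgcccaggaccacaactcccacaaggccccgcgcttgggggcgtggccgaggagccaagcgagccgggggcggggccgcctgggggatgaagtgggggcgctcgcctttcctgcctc
XBP1: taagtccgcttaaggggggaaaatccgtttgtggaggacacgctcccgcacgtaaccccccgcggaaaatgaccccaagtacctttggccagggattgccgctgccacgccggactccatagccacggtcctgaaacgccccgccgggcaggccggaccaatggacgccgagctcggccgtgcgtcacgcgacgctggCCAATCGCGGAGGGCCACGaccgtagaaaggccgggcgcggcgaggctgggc
CANX: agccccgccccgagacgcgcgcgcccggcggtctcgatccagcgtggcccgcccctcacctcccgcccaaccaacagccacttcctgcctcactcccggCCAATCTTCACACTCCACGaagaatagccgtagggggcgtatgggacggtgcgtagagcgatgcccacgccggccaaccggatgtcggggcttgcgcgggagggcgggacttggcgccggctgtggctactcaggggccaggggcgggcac
ERO1B, an ER oxidase, rose from 16.7 and 9.93 to 54.7 and 66.5 CPM (log2 fold change 2.03, SE 0.29, edgeR adjusted p = 0.00351). XBP1 rose from 158 and 141 to 505 and 415 CPM (log2 fold change 1.47, SE 0.18, edgeR adjusted p = 0.00234), and the lectin chaperone CANX from 90.6 and 71.3 to 232 and 262 CPM (log2 fold change 1.45, SE 0.18, edgeR adjusted p = 0.00228). The strict element was rare: it occurred in 14 of the 9547 windows (0.147%), 7 of them in the ER list, where 27 members had a window. Of those 14 genes 11 were called higher and none lower. The 7 outside the list were FICD, SERP1, TRIM5, TMEM120A, EIF2A, ALG12 and ZNF17, and 6 of them rose, all but ZNF17. EIF2A (log2 fold change 0.83, edgeR adjusted p = 0.0496) and ALG12 (log2 fold change 0.60, edgeR adjusted p = 0.0411) lay near the threshold. FICD, an enzyme that modifies the chaperone BiP, went from 16.5 and 14.3 to 121 and 101 CPM (log2 fold change 2.7, SE 0.19, edgeR adjusted p = 0.000846) and SERP1, which stabilises membrane proteins at the translocon, from 173 and 176 to 639 and 633 CPM (log2 fold change 1.72, SE 0.15, edgeR adjusted p = 0.00097). CRELD2 (83.7 and 72.9 CPM in WT and 189.5 and 94.05 CPM in ICM) and CALR (2146 and 1976 CPM in WT and 2976 and 1893 CPM in ICM), which hold the element too, did not pass. The element was searched after the rise of the list was known. Because either strand was searched, 1 element between neighbouring genes can count in the windows of both, and such pairs were not looked for.

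Within the list, the sensor ERN1 rose from 18.8 and 19.6 to 62.5 and 101 CPM and EIF2AK3 from 31.1 and 32.1 to 80.3 and 83.9 CPM. The chaperone BiP (HSPA5) rose from 1977 and 1698 to 5958 and 4607 CPM (log2 fold change 1.37, SE 0.23, edgeR adjusted p = 0.00598). The co-chaperones DNAJB9 and DNAJC3 had the largest rises of the list: DNAJB9 went from 93.8 and 73.2 to 480.2 and 443 CPM (log2 fold change 2.31, SE 0.19, edgeR adjusted p = 0.000958) and DNAJC3 from 107 and 98.05 to 481 and 494 CPM (log2 fold change 2.1, SE 0.15, edgeR adjusted p = 0.000846). ERO1A (104 and 99.2 CPM in WT and 89.4 and 92.6 CPM in ICM) and EDEM3 (112 and 110.3 CPM in WT and 91.98 and 168 CPM in ICM) did not pass.

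The ATF4 and amino acid response list gave no shared direction, with 11 of 36 tested genes higher, 9 lower and a median of 0.09. Both shares lay near the 28.1% higher and 27.1% lower of all genes. DDIT3 (CHOP), a factor of the PERK arm, rose from 28.6 and 25.2 to 321 and 389 CPM (log2 fold change 3.56, SE 0.18, edgeR adjusted p = 0.000646). PPP1R15A (GADD34), which reverses eIF2alpha phosphorylation, rose from 151 and 138 to 1346 and 1502 CPM (log2 fold change 3.15, SE 0.17, edgeR adjusted p = 0.000671), and ATF4 itself from 348 and 359.5 to 1046 and 761 CPM. CHAC1 degrades glutathione and is usually named as an ATF4 target. It fell from 120.4 and 126 to 12.2 and 5.68 CPM (log2 fold change -3.94, SE 0.40, edgeR adjusted p = 0.0014). PHGDH and PSAT1, enzymes of serine synthesis, fell too (38.1 and 51.6 to 11.96 and 7.76 CPM and 48.9 and 62.2 to 23.8 and 21.7 CPM). TRIB3 (31.4 and 27.8 CPM in WT and 25.8 and 29.6 CPM in ICM), another ATF4 target, did not pass. The list median was -0.04 without ICM 3 and -0.01 without ICM 4.

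NRF2 controls antioxidant and glutathione genes. Of 30 tested genes of its list (33 listed, metallothioneins included), 21 rose and 2 fell (median 0.86). SRXN1, sulfiredoxin, rose from 144 and 138 to 1115 and 1067 CPM (log2 fold change 2.8, SE 0.16, edgeR adjusted p = 0.000738). Both subunits of glutamate-cysteine ligase rose, GCLM from 81.3 and 76.02 to 222 and 276 CPM and GCLC from 78.7 and 92.1 to 209.7 and 260.0 CPM, as did NQO1 (944 and 886 to 2093 and 2088 CPM) and the ferritin light chain FTL (7676 and 6728 to 24647 and 22275 CPM). The NRF2 gene itself, NFE2L2, fell from 294 and 287 to 99.3 and 171 CPM and its inhibitor KEAP1 rose from 86.8 and 82.7 to 273 and 260.3 CPM. The cystine transporter SLC7A11 was at 276 and 302 CPM in WT and 346 and 413 CPM in ICM and did not pass. The antioxidant response core TGACNNNGC (either strand) occurred in 6 of 21 windows of this list (28.6%) and in 15.2% of all windows. In the other lists searched the share ran from 4.76% for the matrix list to 25.9% for the p53 targets.

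In the heat shock list 18 of 30 tested genes rose and 2 fell (median 0.62). HSPB8, a small heat shock protein of the BAG3 complex, rose from 12.6 and 12.1 to 140.0 and 179.8 CPM (log2 fold change 3.54, SE 0.18, edgeR adjusted p = 0.000651), BAG3 from 76.8 and 83.3 to 379 and 339.8 CPM and the HSP90 cochaperone FKBP4 from 89.7 and 77.5 to 447 and 484 CPM (log2 fold change 2.32, SE 0.16, edgeR adjusted p = 0.000846). HSPA2 fell from 49.5 and 65.1 to 8.16 and 8.99 CPM (log2 fold change -2.89, SE 0.21, edgeR adjusted p = 0.000846). The mitochondrial chaperonin HSPD1 was at 366 and 321 CPM in WT and 391 and 411 CPM in ICM and did not pass. Of 33 proteasome genes tested, 17 rose and 2 fell (median 0.51), led by the regulatory subunit PSMD2 (302 and 290.0 to 915 and 1075 CPM, log2 fold change 1.59, SE 0.16, edgeR adjusted p = 0.00143), and the catalytic subunit PSMB6 rose from 85.96 and 76.7 to 217 and 229.5 CPM.

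**Figure D3:**
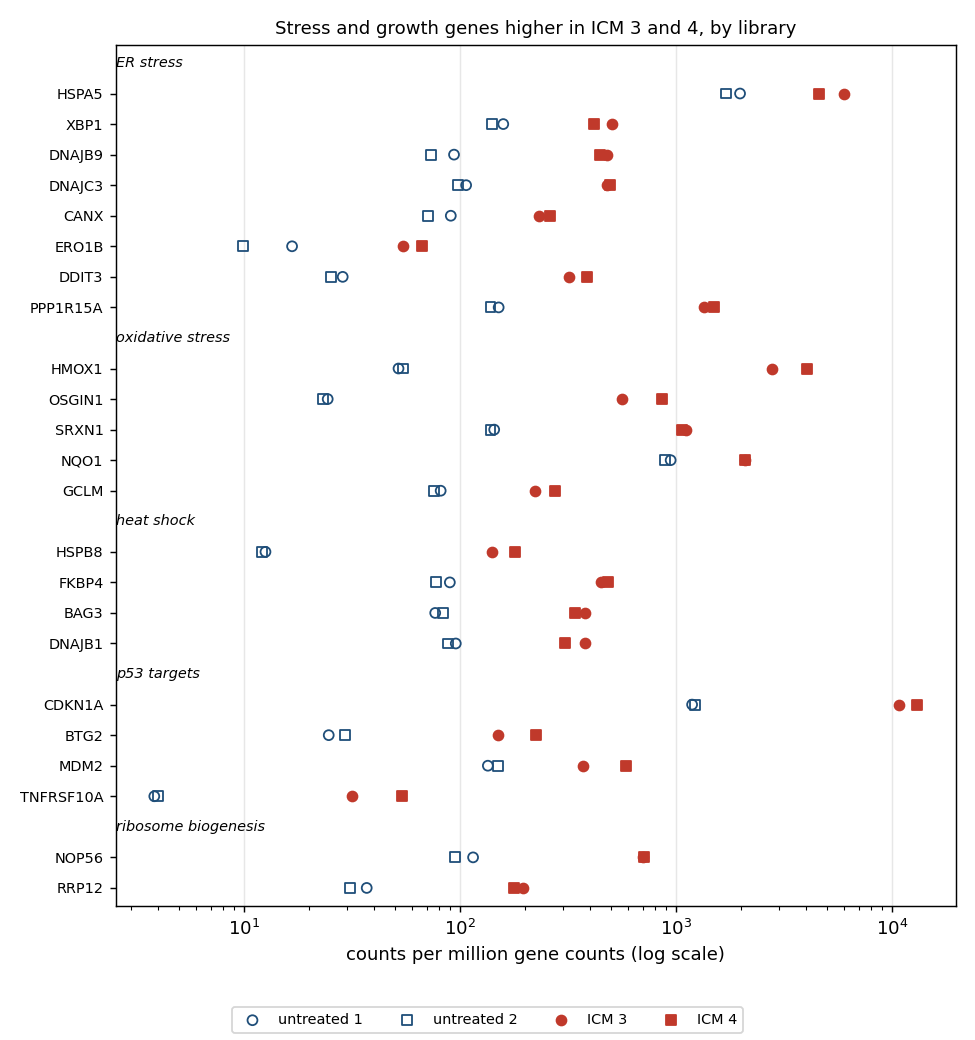
CPM (x axis, log scale) of 23 stress and growth genes, grouped on the y axis, in WT 1 and 2 (blue, open) and ICM 3 and 4 (red, filled). In each of the 23 genes both ICM libraries lie to the right of both WT libraries; the genes were chosen among those that rose.

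Secreted inflammatory genes were almost all lower. Of 35 listed, 30 were tested; 29 fell, none rose, and the median log2 fold change was -4.67. In 13 of the 30 the mean reached 1 CPM in WT alone, and of the 17 that reached it in both groups 16 fell. TNFSF15, a TNF-family cytokine, and CCL20, a chemokine for CCR6 cells, had no count in ICM 3 or 4 and were at least 252.9-fold and 201.5-fold lower than in WT, where TNFSF15 was at 17.04 and 13.9 CPM and CCL20 at 16.6 and 8.31 CPM. CXCL1, which attracts neutrophils, was at 294 and 143 CPM in WT and 0.0418 and 0.118 CPM in ICM 3 and 4, 4 counts in all (log2 fold change -11.47, SE 0.66, edgeR adjusted p = 0.000732). CXCL8, the main neutrophil chemokine, kept 143 and 70.2 CPM of 1759 and 747 CPM (log2 fold change -3.71, SE 0.57, edgeR adjusted p = 0.00444). IL1A fell from 20.4 and 12.1 to 0.209 and 0.985 CPM (log2 fold change -4.9, SE 0.66, edgeR adjusted p = 0.00291) and IL1B from 287 and 161 to 0.711 and 1.77 CPM (log2 fold change -7.64, SE 0.54, edgeR adjusted p = 0.000846). CXCL16 (2.59 and 2.41 CPM in WT and 3.31 and 4.93 CPM in ICM) did not pass. The untreated cells themselves differed: WT 2 lay under WT 1 by a median of 0.65 on the log2 scale over this list, far less than the distance to ICM.

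NF-kB pathway genes, which control many of those cytokines, fell in 13 of 25 and rose in 6 (median -0.92). The feedback genes fell, TNFAIP3 (A20) from 210.1 and 178 to 3.89 and 7.65 CPM (log2 fold change -5.23, SE 0.36, edgeR adjusted p = 0.000846) and NFKBIA from 136 and 112 to 30.9 and 27.9 CPM, and so did the IL-1 receptor IL1R1, from 671 and 661 to 43.1 and 27.2 CPM (log2 fold change -4.39, SE 0.29, edgeR adjusted p = 0.000839). The subunit gene RELA rose from 74.9 and 73.6 to 215 and 231 CPM and the kinase IRAK1 from 136 and 126 to 483 and 457 CPM, while NFKB1 fell from 77.6 and 80.9 to 34.8 and 25.9 CPM. AP-1 and immediate-early genes gave no shared direction (7 of 28 higher, 9 lower, median 0.04, and -0.13 without ICM 3). EGR1 fell from 212 and 210.4 to 29.03 and 25.1 CPM (log2 fold change -3.11, SE 0.16, edgeR adjusted p = 0.000651), EGR2 from 6.55 and 7.82 to 0.209 and 0.434 CPM and EGR3 from 6.08 and 4.61 to 0.293 and 0.236 CPM, while FOSL1 rose from 54.02 and 55.2 to 372 and 440.5 CPM and JUN from 99.4 and 92.7 to 261 and 418 CPM. Of 31 interferon-stimulated genes tested (43 listed), 20 fell and 1, TRIM5, rose (median -1.04). In 5 of the 31 the mean reached 1 CPM in WT alone and in 1 in ICM alone, and of the 25 that reached it in both groups 15 fell and 1 rose. The antiviral IFIT1 fell from 7.002 and 6.996 to 0.586 and 0.315 CPM (log2 fold change -4.1, SE 0.41, edgeR adjusted p = 0.00131), while ISG15 was at 24.4 and 20.6 CPM in WT and 39.1 and 32.05 CPM in ICM and did not pass.

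Extracellular matrix genes fell in 52 of 57 cases tested (58 listed), with none higher and a median log2 fold change of -3.27. Of the 54 that reached 1 CPM in both groups, 49 fell. The fibrillar collagens COL1A1, at 5093 and 8116 CPM in WT and 1831 and 873 CPM in ICM 3 and 4, COL1A2, at 6385 and 8429.9 CPM in WT and 1042 and 654 CPM in ICM, and COL3A1, at 2867 and 3606 CPM in WT and 215 and 36.7 CPM in ICM, all passed as lower. FN1, fibronectin, was at 5257 and 6569 CPM in WT and 681 and 383 CPM in ICM. The members with the largest fall among those reaching 5 CPM were the microfibril protein MFAP2 (15.6 and 15.9 to 0.418 and 0.0788 CPM, log2 fold change -6.13, SE 0.57, edgeR adjusted p = 0.00119), COL5A3 (17.8 and 18 to 0.167 and 0.473 CPM, log2 fold change -5.93, SE 0.44, edgeR adjusted p = 0.000874) and COL11A1 (13.7 and 15.01 to 0.126 and 0.434 CPM, log2 fold change -5.8, SE 0.49, edgeR adjusted p = 0.000963). ICM 4 lay under ICM 3 by a median of 0.83 on the log2 scale. The collagen-modifying PLOD2 (325 and 322 CPM in WT and 264 and 351 CPM in ICM) and the collagen chaperone SERPINH1 (955 and 1038 CPM in WT and 1008 and 553 CPM in ICM) did not pass.

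Most protease genes fell. Of 30 tested protease and inhibitor genes, 19 fell and 2 rose (median -1.33). The plasminogen activators fell, PLAT from 4246 and 3834 to 165 and 19.6 CPM (log2 fold change -5.59, SE 1.08, edgeR adjusted p = 0.0089) and PLAU from 1611 and 1505 to 139 and 41.5 CPM (log2 fold change -4.25, SE 0.63, edgeR adjusted p = 0.00378), with ICM 4 the lower of the ICM libraries in both. MMP2, gelatinase A, fell from 1223 and 1202 to 439 and 308 CPM. MMP3, stromelysin 1, rose from 309 and 125 to 1808 and 1074 CPM (log2 fold change 2.58, SE 0.52, edgeR adjusted p = 0.00995), and ADAM15 from 44.99 and 43.7 to 179 and 155 CPM. MMP1, the interstitial collagenase, was at 798 and 442 CPM in WT and 962 and 632 CPM in ICM and did not pass. MMP1 and MMP3 are commonly named among secreted products of senescent fibroblasts.

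Contractile genes fell in 22 of 28 (2 higher, median -1.48). MYOCD, the coactivator of SRF in smooth muscle, fell from 37.2 and 56.2 to 0.795 and 0.118 CPM (log2 fold change -6.83, SE 0.66, edgeR adjusted p = 0.00126), the myosin kinase MYLK from 282 and 448 to 33.5 and 16.4 CPM (log2 fold change -4.01, SE 0.45, edgeR adjusted p = 0.00177) and ACTA2, smooth muscle actin, from 107 and 206 to 64.1 and 38.2 CPM. The coactivator MRTFA rose from 31.5 and 36.98 to 103 and 119 CPM. TGF-beta pathway genes fell in 18 of 28 (1 higher, median -1.14). The latency proteins LTBP1 (1126 and 1248 to 143 and 116 CPM, log2 fold change -3.34, SE 0.20, edgeR adjusted p = 0.000785) and LRRC32 (11.9 and 12.3 to 1.21 and 0.276 CPM) fell, as did the signal transducer SMAD3 (241 and 288 to 35.6 and 51.2 CPM), while the ligand TGFB1 (134 and 138 CPM in WT and 216 and 178 CPM in ICM) did not pass and the repressor SKI rose (116 and 124 to 323 and 349 CPM). YAP and TEAD targets fell in 12 of 24 and rose in 3, and CCN2, a matricellular protein, fell from 1038 and 1060.3 to 171 and 105 CPM (log2 fold change -3.07, SE 0.29, edgeR adjusted p = 0.00124).

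Growth factor receptors and ligands fell in 22 of 36 (3 higher, median -1.80). PDGFRA, the PDGF receptor that marks lung fibroblasts, was at 1555 and 1791 CPM in WT and 30.4 and 15.5 CPM in ICM 3 and 4 (log2 fold change -6.33, SE 0.43, edgeR adjusted p = 0.000846). AREG, an EGF-family ligand, fell from 534 and 368 to 17.6 and 0.828 CPM (log2 fold change -5.75, SE 1.29, edgeR adjusted p = 0.0146) and was lower in ICM 4 than in ICM 3. The receptor tyrosine kinases EPHA2 (51.8 and 53.96 to 218 and 212 CPM), MET (15.9 and 22.2 to 41.7 and 92.9 CPM) and AXL (196 and 244 to 436 and 479 CPM) rose. Of 19 tested lung fibroblast identity genes 15 fell and none rose (median -2.25). LUM, a matrix proteoglycan, fell from 156 and 139 to 18.7 and 10.3 CPM, the intermediate filament VIM from 1789 and 2193 to 418 and 262 CPM and the lung mesenchyme factor FOXF1 from 625 and 625 to 154 and 59.4 CPM. THY1 was at 274 and 360.2 CPM in WT and 249 and 98.7 CPM in ICM, with ICM 3 near WT and ICM 4 lower, and did not pass.

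**Figure D4:**
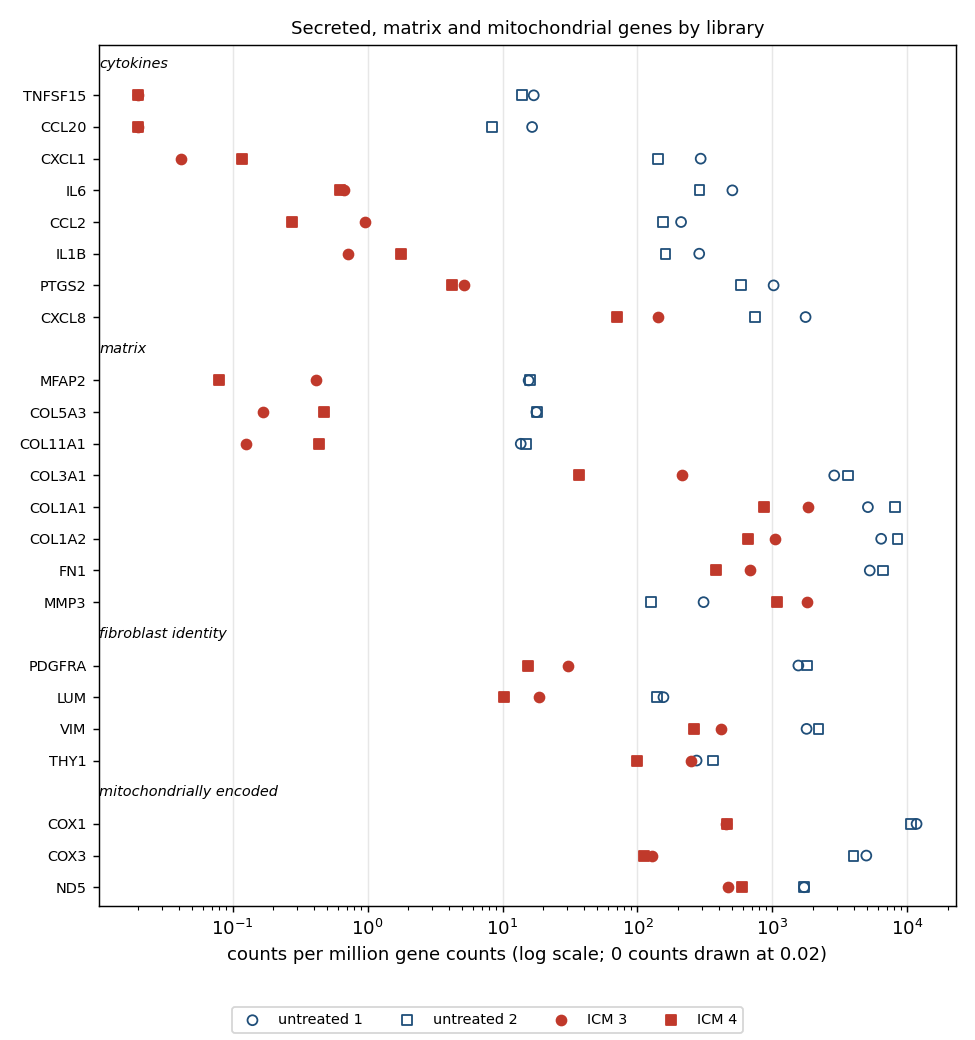
CPM (x axis, log scale; a library with no count is drawn at 0.02) of 23 cytokine, matrix, fibroblast identity and mitochondrial genes in WT 1 and 2 (blue, open) and ICM 3 and 4 (red, filled). MMP3 alone lies to the right of WT; for THY1 the ICM 3 point lies beside WT.

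Mitochondrially encoded mRNAs fell in 12 of 13 cases (median -3.63), and the 46 tested nuclear-encoded respiratory chain genes did not follow (14 higher, 4 lower, median 0.21, 0.08 without WT 2 and 0.07 without ICM 3). COX3, a subunit of cytochrome oxidase, went from 4957 and 3981 to 128 and 112 CPM (log2 fold change -5.37, SE 0.26, edgeR adjusted p = 0.000646), COX1 from 11682 and 10647 to 452 and 462 CPM (log2 fold change -4.77, SE 0.23, edgeR adjusted p = 0.000646) and ND5, a complex I subunit, from 1715 and 1721 to 472 and 594 CPM. The nuclear gene CYC1, cytochrome c1, rose from 88.6 and 81.7 to 279 and 292 CPM (log2 fold change 1.59, SE 0.14, edgeR adjusted p = 0.00106). ATP8 was at 2.47 and 0.933 CPM in WT and 2.89 and 4.02 CPM in ICM and did not pass; its reading frame overlaps that of ATP6, so its count is uncertain. Leaving the mitochondrial genes out of the fit gave 6350 calls.

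Most ribosome assembly genes rose, and most ribosomal protein mRNAs did not pass the test. Of 47 tested ribosome biogenesis genes (48 listed), 31 rose and none fell (median 0.95). NOP56, a core protein of box C/D small nucleolar ribonucleoproteins, rose from 115 and 94.98 to 702 and 709 CPM (log2 fold change 2.6, SE 0.18, edgeR adjusted p = 0.000846), RRP12 from 36.98 and 30.9 to 196 and 177 CPM (log2 fold change 2.31, SE 0.18, edgeR adjusted p = 0.000912) and POLR1A, the large subunit of RNA polymerase I, from 64.2 and 66.3 to 157 and 174 CPM. Nucleophosmin NPM1 was at 754 and 712 CPM in WT and 585 and 714 CPM in ICM and did not pass. Of 72 tested ribosomal protein genes, 21 fell (29.2%, beside 27.1% of all genes) and 4 rose. The median was -0.41, -0.66 without ICM 3 and -0.25 without ICM 4. RPL3 fell from 1554 and 1389 to 465 and 365 CPM (log2 fold change -1.98, SE 0.21, edgeR adjusted p = 0.00157). The family has many processed pseudogenes, so single levels are uncertain.

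Cholesterol synthesis genes rose in 7 of 25 and fell in 1 (median 0.27, and 0.04 without ICM 3), a share of 28.0% higher beside the 28.1% of all genes. TM7SF2, a sterol reductase, rose from 7.3 and 5.103 to 38.5 and 71.9 CPM (log2 fold change 2.99, SE 0.37, edgeR adjusted p = 0.00227). IDI1, an isomerase of isoprenoid synthesis, rose from 49.7 and 47.6 to 92.4 and 128 CPM (log2 fold change 1.02, SE 0.19, edgeR adjusted p = 0.00783), a call lost without either WT library (log2 fold changes of 1.05 and 0.97). Fatty acid genes rose in 9 of 23 and fell in 3 (median 0.73, and 0.30 without ICM 3): the desaturase FADS1 rose from 101 and 86.4 to 332 and 371 CPM (log2 fold change 1.76, SE 0.16, edgeR adjusted p = 0.00112) and FASN, fatty acid synthase, from 109.7 and 104 to 259 and 254 CPM, and ACSL4, which activates arachidonic acid, fell from 1908 and 1534 to 133 and 165 CPM (log2 fold change -3.68, SE 0.22, edgeR adjusted p = 0.000784). Glycolysis and hypoxia genes were lower in 12 of 34 and higher in 6 (median -0.15, and -0.54 without ICM 3), with CA12 from 71.5 and 59.1 to 7.28 and 4.14 CPM and HIF1A from 1075 and 1050.2 to 309 and 515 CPM, while GAPDH was at 6187 and 5704 CPM in WT and 6356 and 7257 CPM in ICM and did not pass. Of 46 autophagy and lysosome genes 16 were higher (34.8%) and 14 lower (30.4%), near the 28.1% and 27.1% of all genes. Their median was 0.09, and -0.02 without ICM 3. The adaptor OPTN fell from 121 and 145 to 36.6 and 38.9 CPM and the protease CTSL rose from 118 and 113 to 331 and 370.3 CPM.

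Nuclear genes were mixed. Of 72 tested splicing and speckle genes, 25 fell and 17 rose (median -0.26). The splicing regulator HNRNPA1 fell from 1001 and 925 to 194 and 199 CPM (log2 fold change -2.45, SE 0.16, edgeR adjusted p = 0.000837) and SRSF6 from 231 and 245 to 55.97 and 60.8 CPM (log2 fold change -2.18, SE 0.14, edgeR adjusted p = 0.000813), while the core spliceosome gene SF3B4 rose from 70.2 and 65.5 to 216 and 210.5 CPM. HMG, lamin and nuclear envelope genes fell in 13 of 28 and rose in 4 (median -0.57); HMGA1, an AT-hook protein, rose from 316 and 292 to 1182 and 1167 CPM and HMGA2 fell from 228 and 204 to 83.95 and 88.9 CPM. Cohesin and heterochromatin genes gave 7 higher (21.2%) and 8 lower (24.2%) of 33 (median -0.20, and 0.04 without ICM 3). Neither share exceeded that of all genes (28.1% and 27.1%). The cohesin loader subunit MAU2 rose from 57.4 and 56.5 to 203 and 199 CPM and CBX3 (HP1 gamma) fell from 255 and 224 to 65.2 and 98.1 CPM. SMC3, of the cohesin ring, was at 61.4 and 64.9 CPM in WT and 28.5 and 76.9 CPM in ICM, with ICM 3 under WT and ICM 4 above it.

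Replication-dependent histone mRNAs normally end in a stem-loop without a poly(A) tail. Of 58 listed genes 19 were tested and all 19 were higher, but 12 of these reached 1 CPM in ICM alone, so their direction follows from the filter and the count is given as a description. The 7 that reached 1 CPM in both groups rose too, among them H1-2, from 10.2 and 7.63 to 157 and 185 CPM (log2 fold change 4.11, SE 0.22, edgeR adjusted p = 0.000651), and H2BC12, from 45.02 and 37.6 to 305 and 281 CPM. H2AC19 had 3 counts in WT and 577 in ICM, a ratio of 273.3 with a 95% counting interval of 93.0 to 1329. Other RNAs without a poly(A) tail were low in both groups, with a higher sum in ICM: 15 small structural RNAs summed to 3.13 and 3.02 CPM in WT and to 4.98 and 7.06 CPM in ICM 3 and 4. Their part in the histone values was not tested.

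Circadian clock genes rose in 9 of 18 and fell in 4 (median 0.97). The nuclear receptor NR1D1 (REV-ERB alpha), which represses BMAL1, rose from 15.8 and 16.98 to 92.95 and 132 CPM (log2 fold change 2.62, SE 0.21, edgeR adjusted p = 0.00095), PER1 from 16.2 and 17.1 to 37.6 and 63.4 CPM and CRY1 from 17.9 and 19.4 to 42.8 and 71.3 CPM, while NFIL3, which opposes D-box activators, fell from 68.9 and 66.2 to 19.9 and 17.6 CPM (log2 fold change -2.0, SE 0.16, edgeR adjusted p = 0.000957). ICM 4 lay above ICM 3 by a median of 0.47 on the log2 scale. The labels give no hour of harvest.

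ICM 1 and 2 carry the same treatment label and share the WT libraries, so values are given side by side. The median log2 ratio to the WT mean (with 0.5 CPM added) was 1.55 and 1.10 in ICM 3 and 4 for the ER list, against -0.29 and 0.71 in ICM 1 and 2. For the NRF2 list it was 1.11 and 1.00 against -0.66 and 0.06. In ICM 1 and 2 HMOX1 stood at 34.96 and 265 CPM and OSGIN1 at 5.88 and 40.05 CPM, next to 51.9 and 54.5 CPM and 24.4 and 23.3 CPM in WT. CDKN1A was at 1529 and 6974 CPM, next to 1186 and 1225 CPM in WT. Mitosis was low in all 4 ICM libraries, at -2.84 and -2.73 in ICM 3 and 4 and -2.79 and -2.26 in ICM 1 and 2. For the matrix list the medians were -2.79, -3.59, -0.42 and -2.85 in ICM 3, 4, 1 and 2, and COL1A2 was at 4538 and 1289.6 CPM in ICM 1 and 2. For the secreted factors they were -3.81, -3.85, -1.19 and -2.32, with IL6 at 64.7 and 30.8 CPM and CXCL8 at 776 and 404 CPM in ICM 1 and 2.

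The 15 small structural RNAs summed to 58840.0 and 30601 CPM in ICM 1 and 2, and their part in the differences between the pairs was not tested. A direct fit of ICM 3 and 4 against ICM 1 and 2 tested 11385 genes and called 1 (0.00878%), POLR2A, while 2465 had an unadjusted p under 0.05 and DESeq2 called 1537. The list medians above were not tested between the pairs. In simulated data of that design with 200 changed genes, 10.3% of 4-fold changes were recovered, against 94% in ICM 3 and 4 versus WT. Such rates depend on how many genes change. ICM 1 and 2 differed from each other by a median chi-square of 156 per gene. POLR2A encodes the largest subunit of RNA polymerase II. It had 0.0205 and 0.0553 CPM in ICM 1 and 2 (1 and 3 counts), 41.2 and 60.7 CPM in ICM 3 and 4 and 11.4 and 16.2 CPM in WT. The sources used here do not say whether all libraries were counted with one annotation, so a difference in counting and one in transcript level cannot be told apart.

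**Figure D5:**
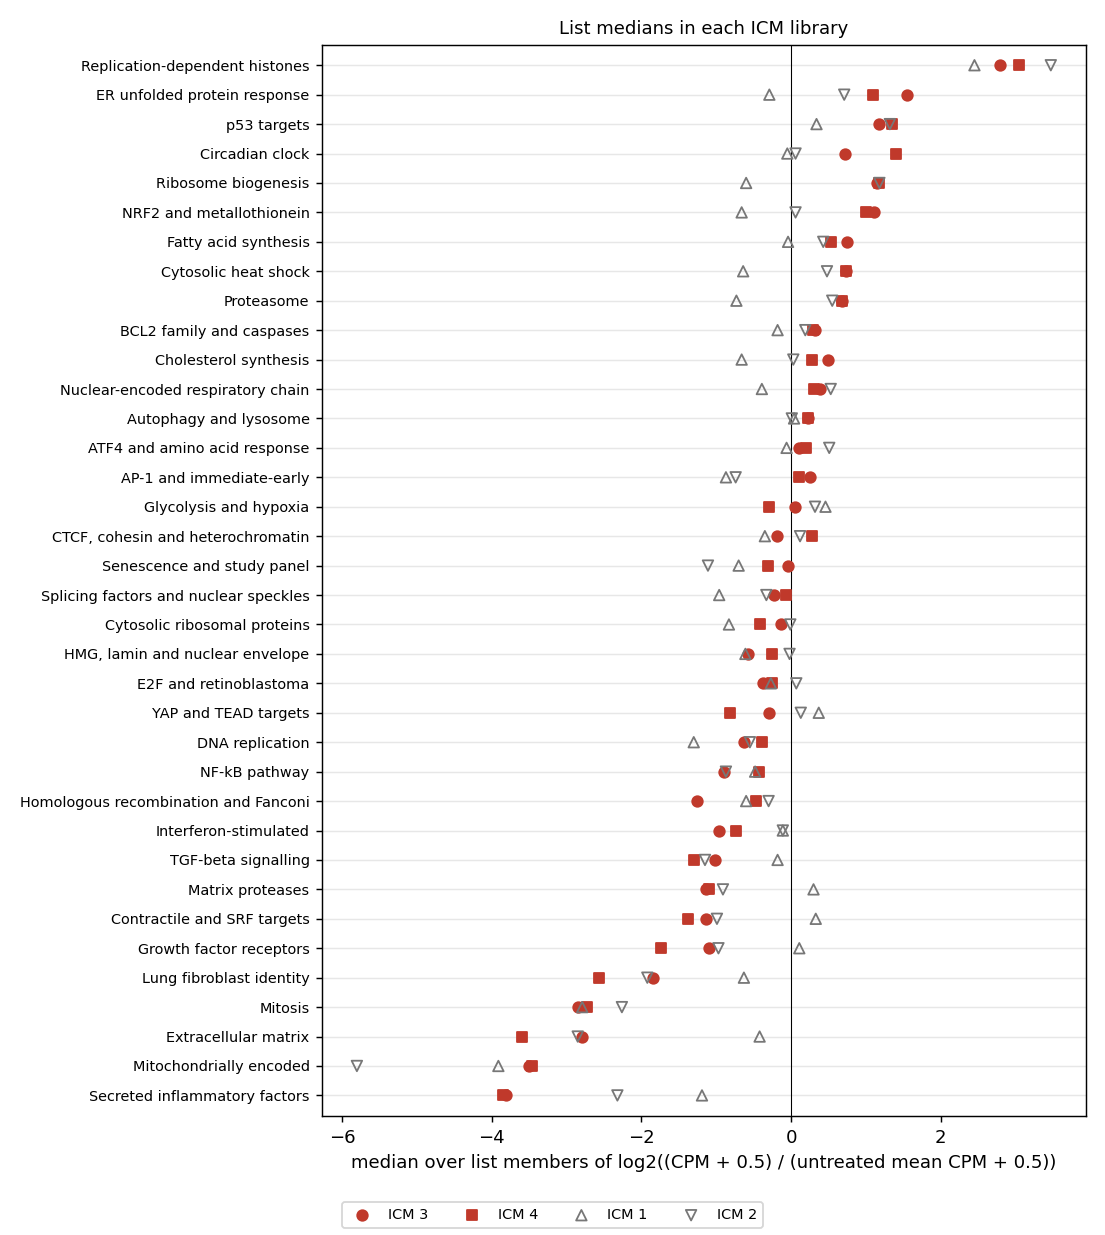
Median over the tested members of each list (y axis) of the log2 ratio of each ICM library to the WT mean (x axis, 0.5 CPM added to both), for ICM 3 and 4 (red, filled) and ICM 1 and 2 (grey, open). ICM 3 and 4 lie close together in most lists, and ICM 1 lies nearest 0 for the matrix and secreted lists, at -0.42 and -1.19.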

How the data were processed

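RNA was extracted with Trizol and a column step with DNase, and TruSeq libraries were read as pairs on a NovaSeq, per the labels' protocols. Whether RNA was selected by poly(A) is not given in the sources used here. The authors deposited 1 table of raw read counts per gene for each library, and the submitters' processing notes name STAR 2.7.3a, HTSeq 0.12.4, DESeq2 1.36.0 and hg38. The annotation and the strand setting are not given in the sources used here, so overlapping and antisense genes cannot be told apart. Rows for unassigned reads (17.5% and 17.9% in WT, 13.1% and 14.3% in ICM 3 and 4) entered neither the library sizes nor the fits.

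Of 54628 gene names, 52027 matched RefSeq, 411 of them by an older name. Protein-coding genes whose mean level reached 1 CPM were fitted over the 4 libraries with edgeR 4.0.16 (trimmed-mean scaling, quasi-likelihood test, Benjamini-Hochberg adjustment over all genes tested, threshold 0.05). Standard errors are the absolute log2 fold change over the square root of F. With 2 libraries a group the fit has 2 residual degrees of freedom. Simulated data of this comparison held 11536 genes, 200 of them changed. There 28% of 2-fold and 94% of 4-fold changes were recovered and 7.58% of calls were false. In ICM 3 and 4 against ICM 1 and 2 (11385 genes, 200 changed), none of the 2-fold and 10.3% of the 4-fold changes were recovered. Of the calls there, 21.4% were false. The data gave 6361 calls for ICM 3 and 4 versus WT. Recovery and false shares depend on how many genes change, so these rates need not hold for the data. Alternatives were other scalings, filters and thresholds, DESeq2 1.42.0, larger fits, each library left out, and ICM 1 and 2 in place of ICM 3 and 4. Intervals and floors (3 counts over a group) cover counting error only.

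Named genes were the 17 genes of the panel, the 10 highest and 10 lowest fold changes among called genes whose mean reached 10 CPM, with at least 4 counts in each library of the lower group, and in each list the 3 called members with the largest change among those with at least 5 CPM in a group, plus members whose role the text needs; some genes these rules name are not reported here. The members, gene lists, motifs and tests were chosen with earlier results of these data known. Promoter windows were found for 9547 of the 11536 genes in RefSeq (GRCh38.p14).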

Additional observations from a re-analysis of the deposited data

Results flagged for a closer look

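POLR2A differed between the ICM pairs under the same treatment label. ICM 3 and 4 had 984 and 1539 counts (41.2 and 60.7 CPM), and ICM 1 and 2 had 1 and 3 counts (0.0205 and 0.0553 CPM), a log2 fold change of 10.14 (edgeR adjusted p = 0.036). WT 1 and 2 had 382 and 592 counts. The libraries with SRRM2 or BANF1 knocked down had 0 to 4 counts, and those with CTCF knocked down 862 and 1442. The sources used here do not say whether all libraries were counted with one annotation, so a difference in counting and one in transcript level cannot be told apart.

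BANF1 and SRRM2 lay on opposite sides of WT in the ICM pairs. The levels of BANF1 were 78.6 and 63.2 CPM in WT, 118 and 91.6 CPM in ICM 3 and 4 (log2 fold change 0.41 against WT, not called) and 13.5 and 32.7 CPM in ICM 1 and 2. ICM 3 and 4 over ICM 1 and 2 gave 2.10 (edgeR adjusted p = 0.12). The levels of SRRM2 were 417 and 476 CPM in WT, 658 and 846 CPM in ICM 3 and 4 (log2 fold change 0.60 against WT, called in the main fit and lost under several alternatives) and 238 and 112 CPM in ICM 1 and 2. ICM 3 and 4 over ICM 1 and 2 gave 1.91 (edgeR adjusted p = 0.148). Neither difference between the pairs passed the threshold.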

How the results depend on the processing

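Against the 6361 calls of ICM 3 and 4 versus WT, 1 fit of all 14 libraries gave 4085 (2056 higher, 2029 lower) and an adjusted p under 0.01 gave 3808 (1916 and 1892). A 2-fold minimum gave 4183, 1817 of them higher. Leaving out 1 library gave 2842 to 8391 calls, 1175 to 4061 higher and 1667 to 4330 lower; the lowest counts came without WT 2 (2842) and without WT 1 (3039), and the highest without ICM 3. Each fit without 1 library leaves 1 library in a group, so its spread comes from the other group alone. Other scalings, filters, DESeq2 and the fit without mitochondrial genes stayed within 1.5 times. With total counts 3791 genes were higher and 2689 lower. In 13 fits, which leave out the 10 CPM filter and the exchange of ICM pairs, 2204 genes (923 higher, 1281 lower) were called in the same direction. The fit of all 14 libraries lost the calls of AREG, BMF, CA12, CTCF, HSPA2, IDI1, KRT18, LRRC32, NOP56, PSMB6 and SRRM2 (edgeR adjusted p from 0.0529 for CA12 to 0.424 for SRRM2). With ICM 1 and 2 in place of ICM 3 and 4, edgeR called 0 genes (0 higher, 0 lower) and 2140 had an unadjusted p under 0.05. In that fit the log2 fold change took the other sign for ATG2A (-0.22), DDX60 (0.63), F3 (0.54), LMOD1 (0.16), LRRC32 (0.33), MYLK (0.46), NR1D1 (-0.97), OPTN (0.03), OSGIN1 (-0.13), PDK1 (0.52), PLAT (0.57), PLAU (0.16), PTBP2 (0.25), SAMD9L (0.71), SRRM2 (-1.30), SYNE2 (0.31) and TEK (1.12); the cause was not tested. Against the 1 call of ICM 3 and 4 versus ICM 1 and 2, total counts gave 5, no filter 843, all genes kept by filterByExpr 136, DESeq2 1537, the fit of all 14 libraries 2981 and an adjusted p under 0.01 gave 0 (2465 at an unadjusted p under 0.05). Leaving out 1 library there gave 180 to 3944, the highest without ICM 2. Apart from the exchange of ICM pairs, list medians changed sign among alternatives for the AP-1, ATF4, autophagy and cohesin lists, and the glycolysis median reached 0. With ICM 1 and 2 in their place the median took the other sign for NRF2 (-0.27), interferon (0.25), YAP (0.29), heat shock (-0.06), cholesterol (-0.32), glycolysis (0.44), AP-1 (-0.62) and cohesin (0.07). The fit without mitochondrial genes and the list medians with GC and length trends taken out were chosen after seeing the data; with those trends removed the ATF4 and autophagy medians were -0.05 each and the AP-1 median -0.03. No paired analysis was possible because the ICM and WT libraries compared share no replicate number.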
